A study of Sus scrofa domesticus with 4 samples.

Results

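Prostaglandin synthesis and receptor genes were examined in pig endometrium cultured with orexin A (OXA), a neuropeptide hormone of feeding and arousal. They were taken as 6 pig genes: PTGS2, PTGES, AKR1B1, PTGFR, PTGER2 and HPGD. A probe was assigned to a gene when the RefSeq accession given for it in the scanner files matched that gene in the RefSeq table of assembly Sscrofa11.1, without version numbers. This reached 4 of the 6 genes, through 7 of 43603 probes, in a set of 3029 genes that could be named this way. PTGS2, PTGES and AKR1B1 had 2 probes each and PTGFR had 1. No accession in the scanner files matched PTGER2 or HPGD, so the E2 receptor and the breakdown step they stand for were not analysed here. Of the matched genes, PTGS2, PTGES and AKR1B1 were bright enough to be tested, among 2407 named genes and 26927 probes kept.

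Prostaglandins are lipid signals made from arachidonic acid. Cyclooxygenases, of which PTGS2 is the inducible form, make the common precursor prostaglandin H2, and terminal synthases then turn it into single products. PTGES makes prostaglandin E2, while AKR1B1, an aldo-keto reductase also known as aldose reductase, can make prostaglandin F2 alpha. PTGFR is the receptor of F2 alpha, PTGER2 is one of the receptors of E2, and HPGD begins the breakdown of both. In the pig uterus F2 alpha is known to end the life of the corpus luteum, and E2 is known as its counterpart that protects the corpus luteum while the conceptus signals its presence.

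Endometrial slices of 100 mg came from 4 gilts (Large White x Polish Landrace, 7 to 8 months old) on days 15 to 16 of gestation. After 2 h of preincubation the slices were cultured for 24 h with OXA or left untreated as controls. The dose of OXA is 10 nM in the sample labels and 10 µM in the design text of the series. Each of 4 Agilent 2-colour arrays carried 1 RNA from OXA-treated slices and 1 RNA from control slices, so there were 4 values per group. The samples' own labels give OXA the dye Cy5 on arrays 1 and 3, and Cy3 on the remaining arrays, 2 and 4. The labelling protocol names Cy5 for OXA without exception. The samples' own labels were followed, and the deposited value table turns the scanner ratios of arrays 2 and 4 in the same way. Both groups came from pregnant animals and were cultured, and no uncultured tissue was set beside them. No source used here says if the paired RNAs shared an animal. In the main fit, p-values in limma measure the spread left between arrays once a dye effect common to all is fitted, moderated over probes. What that spread holds is not known.

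Precision is limited by the number of arrays. Between 52.1% and 74.5% of probes were well above background in each dye, apart from Cy3 on array 1, with 31.7%. Per the file headers, array 1 was the only array on its slide and was scanned on another day than the others. Over all probes kept, the log2 ratios of OXA over control of any 2 arrays correlated between -0.29 and 0.44 (Pearson, across probes, which are not independent replicates). Markers listed for the tissue were present: CDH1, CLDN3, CLDN4, CLDN7, EPCAM and KRT8 for epithelium, and DCN, LUM and COL1A2 for stroma, were all kept. No probe passed limma's test of OXA over control after Benjamini-Hochberg adjustment over the 26927 probes. The tissue is a mixture, so fewer cells of a type and less RNA per cell cannot be told apart in any value below.

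PTGS2, the inducible cyclooxygenase at the head of both branches, did not differ between OXA and control slices beyond the spread between arrays. Its brighter probe had normalized levels of 15.03, 15.26, 14.61 and 14.16 on arrays 1 to 4 in OXA slices, against 14.26, 15.04, 14.89 and 14.37 in control slices. These levels are log2 intensities after normalization within and between arrays. OXA slices were above control on arrays 1 and 2 and below it on arrays 3 and 4, and the 2 groups overlapped over most of their range. The log2 ratios of OXA over control were 0.77, 0.22, -0.28 and -0.21, with a mean of 0.13 ± 0.49 (SD, n = 4). The fitted fold was 1.09, with a 95% interval of 0.725 to 1.64 (limma, adjusted p = 0.812). The dimmer probe gave 0.35, 0.14, -0.11 and -0.17, of the same sign as the brighter one on each of the 4 arrays, and a fitted fold of 1.04 (0.834 to 1.29, adjusted p = 0.852). On array 1 the probes differed by 0.43, the largest gap between them. The direction depended on single arrays: without array 1 the brighter probe was at -0.14 and the dimmer one at -0.06, and without array 2 they were at 0.02 and -0.03.

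**Figure D1:**
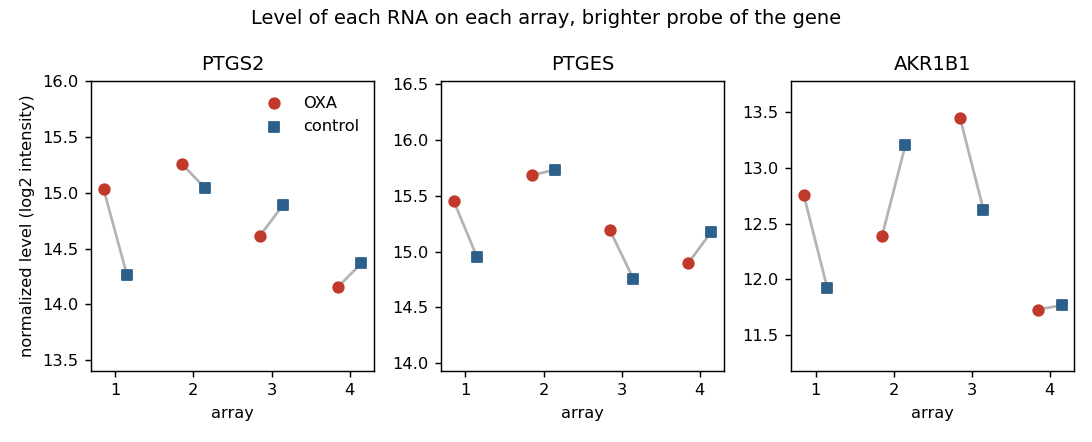
Normalized level (log2 intensity) of the brighter probe of PTGS2, PTGES and AKR1B1 in the OXA RNA (circles) and the control RNA (squares) of each array, joined by a line. Within each gene the arrays differ by more than the mean gap between OXA and control, and AKR1B1 is lowest on array 4 in both RNAs, at 11.73 in OXA and 11.77 in control slices.

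PTGES, the synthase of the E2 branch, had values above control on 2 arrays and below control on the others. The brighter probe stood at 15.45, 15.69, 15.19 and 14.89 on arrays 1 to 4 in OXA slices, against 14.95, 15.74, 14.76 and 15.18 in control slices. OXA slices were higher on arrays 1 and 3, lower on array 4, and almost level with control on array 2. The log2 ratios were 0.50, -0.05, 0.44 and -0.28, with a mean of 0.15 ± 0.38 (SD, n = 4). The fitted fold was 1.11, with a 95% interval of 0.972 to 1.27 (limma, adjusted p = 0.764). The dimmer probe followed the same order of signs, at 0.56, -0.14, 0.78 and -0.29, with a mean of 0.23 ± 0.52 (SD, n = 4) and a fitted fold of 1.17 (1.02 to 1.34, adjusted p = 0.764). Its unadjusted p of 0.0356 in limma was the only one under 0.05 among the 6 member probes tested, where 1.89% of all probes tested were under 0.05. None of the 6 reached a fold of 1.2, a size that 11.1% of all probes tested reached. So none met both criteria, which 1.32% of all probes did, 0.657% with OXA higher and 0.665% with OXA lower. Without array 2 the brighter PTGES probe was at 0.09.

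The error of PTGES, like that of AKR1B1 below, depended on the fit. The dye term takes up what Cy5 over Cy3 had in common on all arrays, and it was 0.32 (SE 0.07) for the brighter probe and 0.44 (SE 0.07) for the dimmer one. With no dye term the value of the brighter probe stayed at 0.15, but its SE was 0.16 in place of 0.07. With the dye term kept and an intensity trend with robust fitting, the SE was 0.18.

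AKR1B1, the synthase of the F2 alpha branch, had ratios on both sides of 0 and no difference beyond the spread between arrays. By the samples' own labels the SD of its ratios was 0.79, beside 0.49 for PTGS2 and 0.38 for PTGES, and read as Cy5 over Cy3 the SDs were 0.39, 0.49 and 0.20 in the same order. Its brighter probe stood at 12.76, 12.39, 13.45 and 11.73 on arrays 1 to 4 in OXA slices, against 11.92, 13.20, 12.62 and 11.77 in control slices. OXA slices were higher by over 0.8 on arrays 1 and 3 and lower by over 0.8 on array 2, while array 4 held almost equal levels. The log2 ratios were 0.83, -0.82, 0.82 and -0.04, with a mean of 0.20 ± 0.79 (SD, n = 4). The fitted fold was 1.15, with a 95% interval of 0.859 to 1.54 (limma, adjusted p = 0.764). The SE of the log2 value was 0.15 in that fit, but 0.32 with no dye term. It was 0.24 with an intensity trend and robust fitting, and 0.28 with array weights. The dimmer probe gave 0.71, -0.70, 0.34 and 0.02 and a fitted fold of 1.06 (0.788 to 1.44, adjusted p = 0.817). Both probes had the same sign on 3 arrays, and on array 3 they differed by 0.49. The brighter probe was at 0.40 without array 2 and at 0.0047 without array 4, where the fit gives the one array left with OXA in Cy3 as much weight as both others. For the dimmer probe the value without array 4 was -0.09, below control, and without array 1 it was -0.0025.

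**Figure D2:**
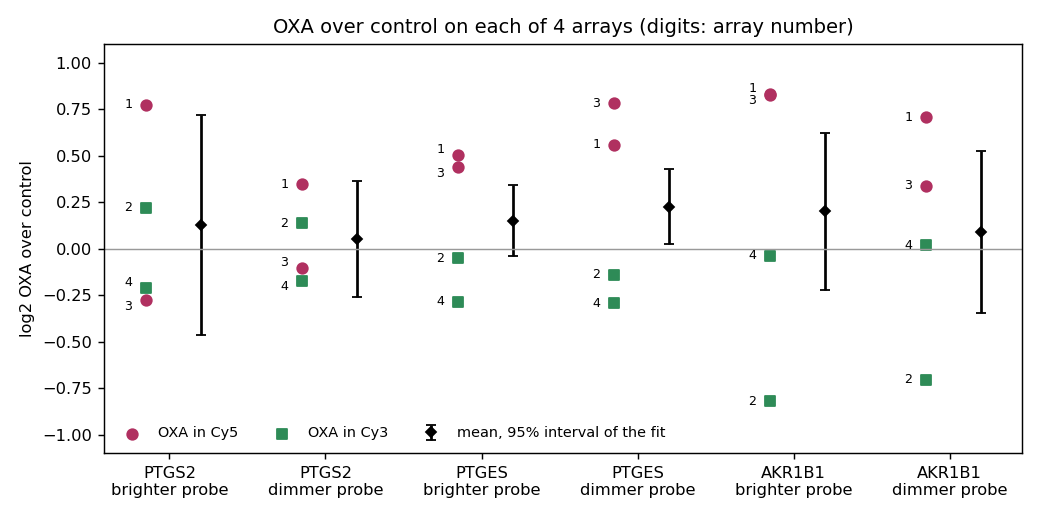
Log2 ratio of OXA over control on each of the 4 arrays for both probes of PTGS2, PTGES and AKR1B1, with circles where OXA was in Cy5, squares where it was in Cy3, and the fitted mean with its 95% interval as a diamond. For PTGES both circles lie above 0 and both squares below 0 in each probe, and for PTGS2 each dye holds values on both sides of 0.

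The levels of these genes differed between arrays by more than the mean difference of OXA and control slices. The brighter AKR1B1 probe ranged over 1.72 log2 units among the 4 OXA RNAs and over 1.44 among the 4 control RNAs. For PTGS2 the ranges were 1.11 in OXA and 0.78 in control RNAs, and for PTGES 0.79 in OXA and 0.98 in control RNAs. The mean level of both RNAs on an array had an SD over arrays of 0.57 for AKR1B1, 0.37 for PTGS2 and 0.33 for PTGES, where the median of all probes tested was 0.09. Of all probes tested, 98.0% had a smaller SD than AKR1B1, 92.4% than PTGS2 and 90.4% than PTGES. The probes tested include dim ones whose levels hardly move near background. The members were not set against probes of like brightness, so these shares may reflect brightness. What differs between arrays, such as animals, slices and hybridisation, and for array 1 also the slide, cannot be told apart here.

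PTGFR, the F2 alpha receptor, was too dim to be compared. Its probe was well above background in 1 of 8 readings, the control RNA of array 4. The unprocessed median intensities were 103, 163, 93 and 182.5 in OXA slices of arrays 1 to 4, against 304.5, 96, 160 and 114 in control slices. The Cy3 readings were 1.01 to 1.21 times the median of negative-control spots in that dye, and the Cy5 readings were 1.35 to 1.54 times theirs. The large and small values of this probe followed the dye, with Cy3 above Cy5 on all arrays. No fold is given for it, since OXA slices were well above background on no array and control slices on 1.

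The E2 and F2 alpha branches could thus be set against each other at the synthase step alone, through PTGES and AKR1B1. FAM213B, a further prostaglandin F synthase, was dim and at -0.03, and was not part of the contrast. The listed terminal synthases PTGES2 and PTGES3 had no matched probe. The log2 ratio of PTGES minus that of AKR1B1, which does not depend on a shift common to both genes of an array, was -0.33, 0.77, -0.39 and -0.25 on arrays 1 to 4. By the samples' own labels PTGES had the lower ratio on arrays 1, 3 and 4 and the higher one on array 2. The mean difference was -0.05 ± 0.55 (SD, n = 4), with PTGES at 0.15 and AKR1B1 at 0.20. No dye term was fitted for this difference, so its spread holds any dye effect that the genes do not share. In the main fit the dye terms were 0.32 for PTGES and 0.63 for AKR1B1. An exact two-sided sign-flip permutation test over the 4 arrays gave p = 1, where 0.125 is the smallest p that 4 arrays allow. The difference was at 0.21 without array 4 and at -0.30 without array 2, and it was at 0.04 when both probes of each gene were averaged. With OXA taken as Cy5 throughout, as the labelling protocol has it, arrays 2 and 4 change sign and the difference was -0.31 (exact two-sided sign-flip permutation test, p = 0.25). No separation of PTGES from AKR1B1 in either direction was detectable with 4 arrays, which does not show that the branches acted alike.

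**Figure D3:**
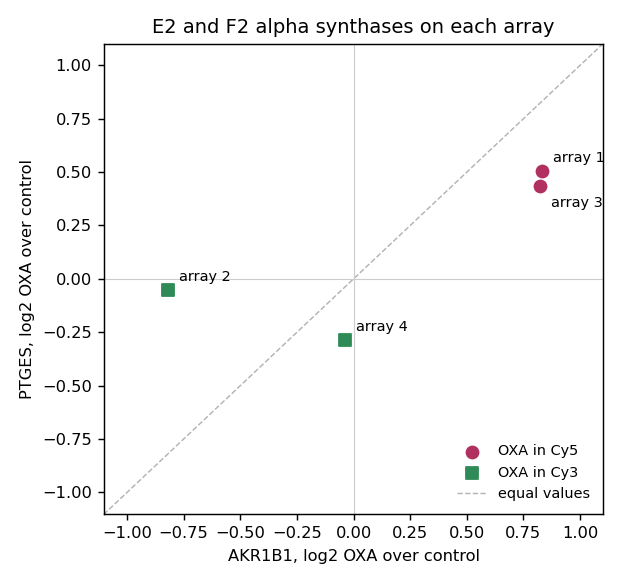
Log2 ratio of OXA over control of PTGES against that of AKR1B1 (brighter probes) on each array, with the dye of OXA by symbol and equal values as a dashed line. Arrays 1 and 3 lie together in the upper right, with AKR1B1 at 0.83 and 0.82, and array 2 alone lies far above the line of equal values.

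The ratios of both synthases split by dye. PTGES and AKR1B1 were above control on both arrays with OXA in Cy5, with means of 0.47 and 0.83 for the brighter probes. On both arrays with OXA in Cy3 they were below control, with means of -0.17 and -0.43. Read as Cy5 over Cy3, the brighter probe of each was above 0 on 4 of 4 arrays, from 0.05 to 0.50 for PTGES and from 0.04 to 0.83 for AKR1B1. The dimmer probe was above 0 on 4 arrays for PTGES and on 3 for AKR1B1. All 4 arrays above 0 were found in 10.3% of all probes tested. For OXA over control none of the 6 member probes had 1 sign on all 4 arrays, as 11.9% of all probes did. All 6 were above 0 on array 1, where 58.4% of all probes were. The dye term of AKR1B1 was 0.63 (95% interval 0.21 to 1.05) and that of PTGES was 0.32 (0.13 to 0.51), and neither passed limma's test of the dye term over all probes (adjusted p = 0.932 for each). Of the 6 member probes 3 had a dye term above 0 with an unadjusted p under 0.05 in limma, both of PTGES and the brighter one of AKR1B1, where 3.25% of all probes did. The brighter PTGS2 probe had no such order, with 0.77 and -0.28 in Cy5 and 0.22 and -0.21 in Cy3, and a dye term of 0.12 (-0.47 to 0.71).

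The labelling protocol has OXA in Cy5 on every array, against the samples' own labels and the direction of the deposited value table. If so, the Cy5 over Cy3 values read as OXA over control. PTGES was then at 0.32 (SE 0.09) and AKR1B1 at 0.63 (SE 0.17), each above control on 4 of 4 arrays, and PTGS2 at 0.12 (SE 0.20). None passed limma's test under that reading either (adjusted p = 0.905 for each), and the lowest unadjusted p was 0.0153, for AKR1B1. Under it an OXA effect and a dye effect cannot be told apart, because no array has the dyes turned round.

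Marker lists moved with some of these splits, and their part in the values was not tested. The macrophage and other myeloid markers (3 of 6 kept: AIF1, CD14 and CD163) had array medians of 0.37, -0.51, 0.30 and -0.55, above 0 with OXA in Cy5 and below 0 with OXA in Cy3, like both synthases. Their summed level ran from 12.73 to 13.88 in OXA slices and from 12.73 to 14.04 in control slices. The smooth muscle markers (3 of 5: ACTA2, CNN1 and DES) had medians of 0.01, -0.96, 0.57 and -0.21, in the same order of signs. Their summed levels were 14.00 to 14.75 in OXA and 14.16 to 15.16 in control slices. The conceptus trophoblast medians, 0.11, -0.05, 0.01 and -0.01, had that order of signs too, but those of arrays 3 and 4 were almost 0. The summed levels of this list were 12.12 to 12.21 in OXA and 12.11 to 12.30 in control slices. One of its markers, IFNG, was well above background in 4 readings, the fewest that the filter allows. The ratio of its summed levels was above 0 on array 4, at 0.0049, so the order was not settled for this list. Each of these lists held a marker below 0 on array 1, with CD14 at -0.66, ACTA2 at -0.38 and IL1B2 at -0.36. Array 1, where PTGS2 had its highest ratio, had a median of 1.44 for the stromal markers (3 of 7), whose summed levels were 14.52 to 16.28 in OXA and 14.60 to 15.82 in control slices. On the same array the epithelial markers (6 of 9) were at -0.84, with summed levels of 16.36 to 16.87 in OXA and 16.20 to 17.50 in control slices. Both lists were mixed on array 1, where the LUM probes ran from -0.87 to 1.61 and CLDN7 was at 0.07. Over the 4 arrays the list medians of OXA over control were -0.11 for epithelium, 0.39 for stroma, -0.15 for smooth muscle, -0.25 for endothelium (3 of 5), -0.23 for myeloid cells, -0.04 for T and NK lymphocytes (4 of 6) and 0.03 for conceptus trophoblast (3 of 4). CD4 was the one marker with a matched probe that was not kept, and no accession matched the 2 blood markers.

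The values of these probes depended on the normalization. In the unprocessed intensities Cy5 exceeded Cy3 by 3.13 to 7.22 times for the brighter PTGES probe, by 3.12 to 4.21 times for PTGS2 and by 2.12 to 6.19 times for AKR1B1, whichever RNA was in Cy5. Loess removes such a trend with brightness on each array. With each array centred on its median instead, PTGS2 was at 0.46, PTGES at 0.47 and AKR1B1 at 0.61, where the median of all probes was 0.14 in place of 0.02. None of the 3 passed limma's test under that scaling (adjusted p of 0.275, 0.360 and 0.301). With no background correction the 3 genes were at 0.14, 0.15 and 0.16, and with Agilent's own log ratio at 0.16, 0.14 and 0.14. Over all 15 alternative settings the lowest adjusted p was 0.209 for PTGS2, 0.263 for PTGES and 0.301 for AKR1B1.

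**Figure D4:**
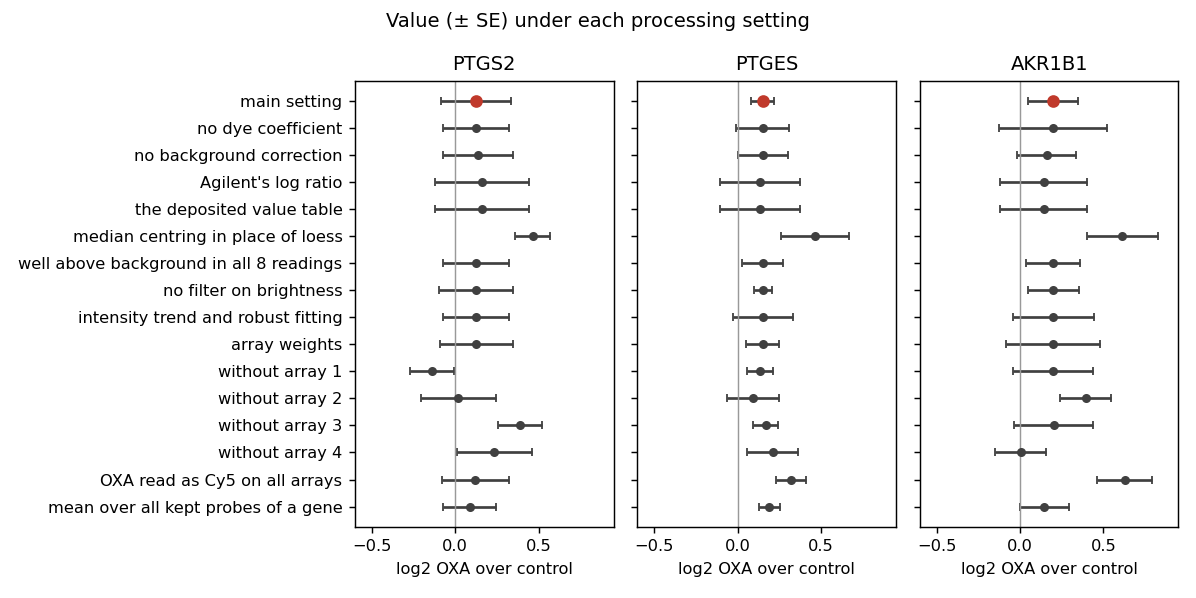
Value of PTGS2, PTGES and AKR1B1 (log2 OXA over control, with its SE as a bar) under the main setting, in red, and under 15 alternatives. PTGS2 crosses 0 without array 1, at -0.14, and AKR1B1 lies between 0.0047 without array 4 and 0.63 under the labelling protocol's dye order.

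Other genes of prostanoid metabolism and reception were drawn from a list of 49, of which 16 had a matched probe and 14 were kept. None of the 14 had an unadjusted p under 0.05 in limma. There were 5 above 0 and 9 below 0, with a median of -0.03, beside 57.1% above 0 and a median of 0.02 for all probes tested. Those below 0 include the dim CBR2, FAM213B, SLCO2A1 and PPARD. Of the 9 genes well above background in all 8 readings, 4 were above 0. With median centring 9 of the 14 were above 0, with a median of 0.12 beside 0.14 for all probes. AKR1C1, an aldo-keto reductase, and PPARA, a nuclear receptor of fatty acids, were not bright enough in any probe.

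ANXA1 (annexin A1, known to restrain phospholipase activity) was listed with the phospholipases. It had the highest value of the 14 by the samples' own labels, 0.57 (SE 0.32, limma, adjusted p = 0.764). With OXA taken as Cy5 throughout it was at -0.44, the lowest of the 14, and AKR1A1 was highest at 0.38. Its level on array 2 was 15.83 in OXA and 13.94 in control slices, a log2 ratio of 1.88, and the other arrays gave 0.08 to 0.19. All 8 ANXA1 probes lay between 1.34 and 1.88 on array 2 and between -1.05 and 0.50 on the others. Without array 2 the value was 0.14. PLA2G7, a phospholipase that inactivates platelet-activating factor, was at -0.36, 0.20, 0.35 and -0.56 on arrays 1 to 4, with a mean of -0.09 that turned to 0.09 without array 1 and to 0.10 without array 4.

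Among terminal enzymes, AKR1CL1, an aldo-keto reductase of the AKR1C group, had the lowest value by the samples' own labels, -0.60 (SE 0.40, limma, adjusted p = 0.764), and was at -0.23 with OXA taken as Cy5 throughout. The value came from array 1, where its level was 11.07 in OXA and 13.02 in control slices, a log2 ratio of -1.94. The other arrays gave -0.26, 0.28 and -0.46, and without array 1 the value was -0.04. Its 3 probes ran from -1.94 to -1.22 on array 1. TBXAS1, the thromboxane synthase, was at -0.29 (SE 0.16), with -0.77 on array 1, and at -0.09 without that array. CBR1, a carbonyl reductase able to turn E2 into F2 alpha and so to link the branches, was at -0.03 (SE 0.07), between -0.18 and 0.05 on the 4 arrays. It turned to 0.02 without array 2, to 0.05 with no background correction and to 0.04 with OXA taken as Cy5 throughout. PTGDS, the synthase of prostaglandin D2, was at 0.12 (SE 0.11), with 0.55 on array 1 and -0.01 without it. AKR1A1, an aldehyde reductase, had a mean of 0.02 (SE 0.12), and its ratios ranged between -0.42 (array 2) and 0.68 (array 1). Its direction was not settled, at -0.12 without array 1, -0.01 without array 4 and -0.09 for its lowest probe. CBR2, a carbonyl reductase, and FAM213B, a prostamide and prostaglandin F synthase, were well above background in 4 of 8 readings each and were at -0.08 and -0.03.

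PTGR1, a reductase that inactivates prostaglandin metabolites, was the breakdown enzyme that could be measured. It was at -0.10, 0.35, 0.55 and -0.01 on arrays 1 to 4, with a mean of 0.20 (SE 0.14, limma, adjusted p = 0.764), and its other probe gave 0.40. Without array 3 the value was 0.03. SLCO2A1, the prostaglandin transporter, was at -0.02 (SE 0.05). PTGER3, an E2 receptor, was at 0.12 (SE 0.10), with 0.48 on array 1 and 0.0021 with that array left out. It was well above background in 7 of 8 readings. The exception was the control RNA of array 1, over which the 0.48 is taken. The nuclear receptors PPARG and PPARD, which bind prostanoids among other lipids, were at -0.08 (SE 0.07) and -0.02 (SE 0.05). Several of these values were larger in size with Agilent's own log ratio, where TBXAS1 was at -1.20, AKR1CL1 at -1.11, CBR2 at -0.80, PPARG at -0.37 and PTGER3 at 0.36. Under the same setting PPARD turned to 0.20, and AKR1A1 to -0.03. SLCO2A1 and PPARD had levels of 9.91 to 10.00 and 10.00 to 10.08, near the 9.80 to 10.07 of PTGFR. Their values near 0 with small SEs are thus no measure of a lack of change.

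**Figure D5:**
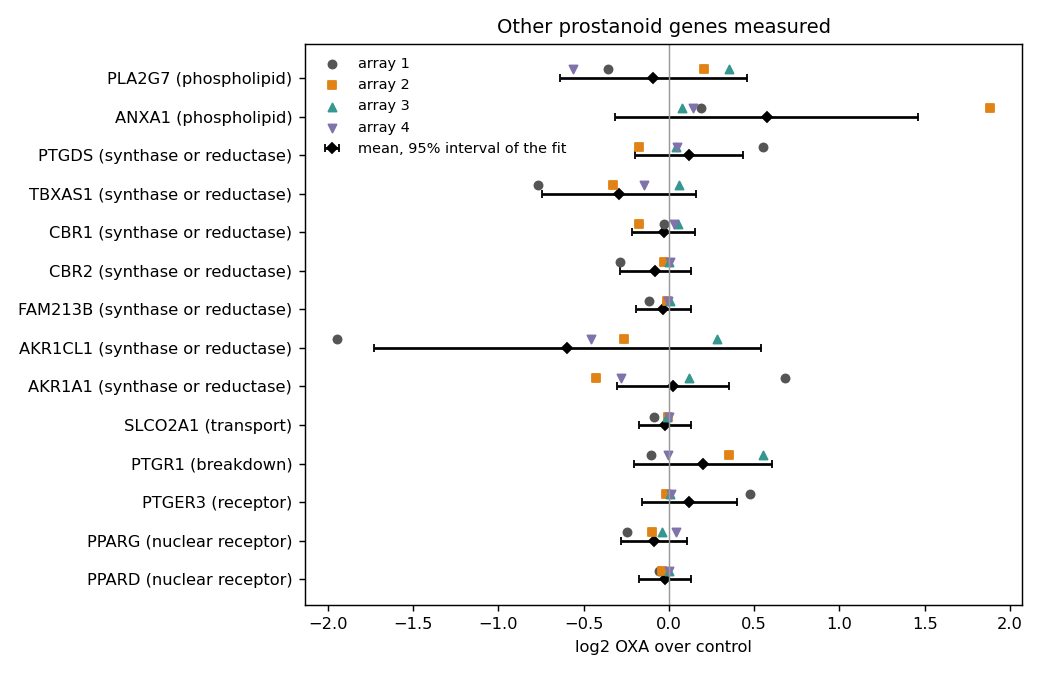
Log2 ratio of OXA over control of the other 14 prostanoid genes, with the fitted mean and 95% interval as a diamond with bars and the 4 arrays as separate symbols. The far points are ANXA1 on array 2, at 1.88, and AKR1CL1 on array 1, at -1.94, and all intervals include 0.

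The named genes nearest to each synthase were found by Euclidean distance over the 4 log2 ratios, among 2390 genes outside the prostanoid lists. For PTGES they were TYK2 (a Janus kinase), SLC5A4 (a member of the sodium and glucose cotransporter family) and KLF15 (a transcription factor), at distances of 0.16 to 0.19 where the median gene was at 0.82. For AKR1B1 they were SULT1A3 (a sulfotransferase), SERPINF1 (pigment epithelium-derived factor) and GUSB (a lysosomal glucuronidase), at 0.56 to 0.63 where the median gene was at 1.43. SULT1A3, the nearest to AKR1B1, was at 1.02, -0.63, 0.34 and -0.07 on arrays 1 to 4. All 6 share with the synthases the sign on arrays 1 to 3, and the dye orientation of the arrays is part of that likeness.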

How the data were processed

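RNA of OXA-treated and control endometrial slices was measured on 4 Agilent 2-colour arrays, in one group of 4 ratios. The deposited scanner files hold median pixel intensity values of spot and local background in both dyes, from Agilent Feature Extraction (version 10.7.3.1, per the file headers). Per the file headers, that software also made the processed intensities and the log10 ratio (Cy5 against Cy3) of each spot. In the deposited value table are log2 ratios. The scanner ratios were turned from log10 into log2 to be compared with it. Set against them over 43420 probes, its columns had slopes of 1.06, -1.00, 1.04 and -1.03. So its scale is log2 and its direction OXA over control. Its column medians were -0.17, 0.06, -0.06 and 0.09, and its centring stays unknown.

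Median intensities were background-corrected with normexp (offset 50, fitted on all spots) and normalized by loess in each array, with control spots at weight 0. Outlier-marked spots were left out, spots of a probe averaged, and probes kept when well above background in at least 4 of 8 readings. Log2 Cy5 over Cy3 ratios were fitted in limma 3.58.1 (R 4.3.3) with an OXA and a dye coefficient, which left 2 residual degrees of freedom, 3.89 after moderation. Benjamini-Hochberg adjustment ran over the 26927 probes kept. Levels were read per channel after Aquantile normalization between arrays. A gene was its brightest kept probe. Of 7125 probes with a RefSeq accession, 6700 matched the gene table. The file headers name no genome build, so no coordinates are given. The fit was run on simulated ratios with independent normal errors, to check that known effects were recovered in size on average. That check says nothing on the p-values of these data.

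The members, the wider list, the marker lists and the rules were chosen with earlier results of these data known. All measured genes of the wider list were named, being fewer than 15, and the 3 genes nearest to PTGES and to AKR1B1. Alternatives covered the dye term, background, normalization, brightness filter, variance model, array weights, dye reading, probe choice and each array left out. The planned contrast of PTGER2 with PTGFR could not be computed.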

Additional observations from a re-analysis of the deposited data

Results flagged for a closer look

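In 18 sets of 4 values (ratios of 3 members and of the wider list well above background in all readings, and member levels in OXA and in control slices), 1 value stood far from its group by Dixon's gap test. It was ANXA1 on array 2, with a log2 ratio of OXA over control of 1.88, where the other arrays gave 0.08 to 0.19. Such a test marks about 1 in 20 groups by chance.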

How the results depend on the processing

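PTGES and AKR1B1 stayed above 0 and short of an adjusted p of 0.05 in all 15 alternatives, and PTGS2 did so in all but 1, without array 1. With 1 array left out, PTGS2 lay between -0.14 and 0.39, PTGES between 0.09 and 0.21, and AKR1B1 between 0.0047 and 0.40. The difference of PTGES minus AKR1B1, at -0.05, lay between -0.30 and 0.21 with 1 array left out. It was 0.044 with the mean over all kept probes, -0.15 with median centring and -0.31 under the labelling protocol's dye order. The cause of these turns was not tested. Of the wider list, 9 of 14 genes lay above 0 with median centring in place of 5. No probe passed after adjustment in 13 of the 14 alternatives fitted per probe, and an intensity trend with robust fitting called 3, none of them a member. The 356 probes under an unadjusted p of 0.05 with a fold of at least 1.2 became 1405 with no background correction, 1829 with Agilent's log ratio, 1824 with the deposited value table, 4292 with median centring, 193 with array weights, 681 under the labelling protocol's dye order, and 286 to 3120 with 1 array left out. Leaving out array 1 is also the value within the slide of the other arrays. PTGFR had a value only with no brightness filter, -0.07 (limma, adjusted p = 0.739), too near background to be read as a difference. PTGER2, HPGD and the contrast of the receptors were not run. The ratios are taken within an array, so OXA and control RNAs are paired by array. Pairing by animal could not be checked, since no source used here says if the paired RNAs shared one. Signal over background limits PTGFR and the genes of the wider list not well above it in all 8 readings.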
